A study of Mus musculus with 8 samples.

Results

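The genes examined here encode the signalling system of transforming growth factor beta (TGF beta) and the bone morphogenetic proteins (BMPs). They number 37 of the 41591 genes in the count tables. They were taken by symbol from a list of ligands, receptors, SMADs, antagonists and ID response genes that leaves out oocyte ligands and inhibin subunits, and all 37 passed the filter on low counts, among 16870 genes tested. RNA sequencing was done on whole ovaries of C57BL/6 female mice about 3 weeks old. The 4 controls were littermates labelled wild-type and positive for Pgr-Cre, a recombinase gene driven by the progesterone receptor gene. The 4 DKO samples were labelled as a double knockout of Insr and Igf1r, the receptor genes for insulin and insulin-like growth factor 1, and the design calls the knockout conditional. All mice of both groups were given 4 IU of eCG, which drives follicle growth, then 5 IU of hCG after 48 h, which stands in for the ovulatory hormone surge, and ovaries were collected 12 h after hCG. The DKO labels do not name the Cre driver. A Cre under the Pgr promoter acts only in cells that express Pgr, or whose precursors did, so if the DKO mice carried it, a whole ovary would also contain cells with intact receptors.

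Ligands of this family bind a pair of type II and type I receptor kinases, which phosphorylate the receptor-regulated SMAD proteins. Those proteins enter the nucleus with SMAD4 and change transcription, the ID genes being classic targets of BMP signals and SMAD6 and SMAD7 feeding back as inhibitors. TGF beta is secreted in a latent form tied to the matrix by latent TGF beta binding proteins (LTBPs), and secreted antagonists such as noggin and gremlin hold BMPs away from their receptors. In the ovary the family acts on follicle growth, on the behaviour of granulosa and cumulus cells and on luteinization.

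Libraries held 33145056 to 39257648 counts in genes. Insr was at 140.05 to 162 CPM (counts scaled to library size with TMM factors) in controls and 112 to 148 in DKO, and Igf1r at 196 to 263.3 and 199.6 to 247. These counts run over whole genes and check the deletion weakly. Granulosa, luteal, theca, endothelial and oocyte markers were above 0 in all 8 libraries. The oviduct gene Ovgp1 was at 1147 CPM in control 1 and 724 CPM in DKO 2, against 2.51 to 23.8 CPM in the other 6, so these libraries stood apart. The summed level of the 7 oocyte markers was 114 to 145 CPM in control 1, DKO 1 and DKO 2, which have the lowest numbers in their titles, and 257 to 430.3 CPM in the 5 libraries with higher title numbers. The labels do not say what these title numbers are, nor whether each sample is 1 animal, so p-values measure the spread between these samples.

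Of the 37 genes, 1 passed the test and was higher in DKO, Ltbp1, and none was lower. Genes were called at an adjusted p of 0.05, by quasi-likelihood testing in edgeR with Benjamini-Hochberg adjustment over all 16870 genes. Of all genes tested, 1.26% passed, 0.759% higher and 0.498% lower. An unadjusted p under 0.05 was reached by 5 of the 37 (13.5%), against 15.4% of all genes. Those 5 were Ltbp1, which was higher, and Tgfb2, Bmp6, Tgfbr1 and Acvr1b, which had lower means in DKO. DESeq2 called Ltbp1 alone among the 37, and 3.59% of the 29920 genes it fitted. Those 29920 were not filtered on low counts, whereas all 37 passed that filter, so the DESeq2 shares have unlike bases. In edgeR the shares of the 37 lie near the background.

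The fitted change was below 0 for 27 of the 37 genes (73.0%), against 53.1% of all genes, and the median log2 fold change, DKO over control, was -0.21 against -0.02 over all genes tested. The libraries overlapped in this measure: the median of the 37 genes, relative to the control means, ran from -0.18 (control 3) to 0.15 (control 4) and from -0.26 (DKO 3) to 0.02 (DKO 4). For 15 of the 37 (40.5%) the 95% interval of the fold change lay within 1.5-fold either way, against 44.1% of all genes tested. The 15 were Tgfb1, Bmp6, Bmp1, Acvr1, Acvr2a, Bambi, Smad1, Smad2, Smad4, Smad5, Smad6, Smad7, Id1, Id3 and Id4. The interval of Ltbp1 lay wholly above a 1.5-fold rise, and those of the remaining genes reached past 1.5-fold in at least 1 direction.

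**Figure D1:**
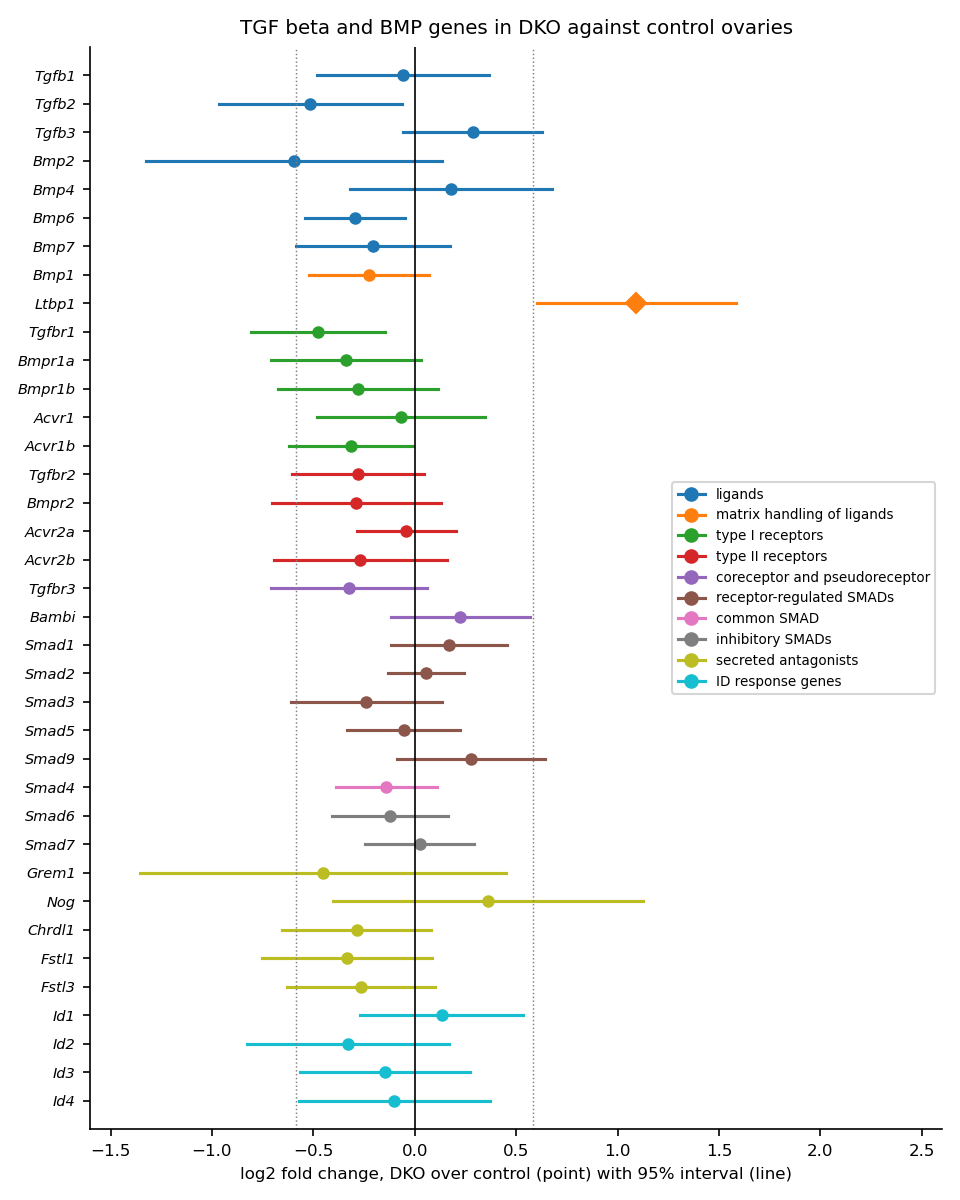
Log2 fold change, DKO over control, of the 37 genes (horizontal axis) with its 95% interval, coloured by role, with the called gene as a diamond and dotted lines at 1.5-fold either way. Ltbp1 stands at 1.09 with an interval from 0.60 to 1.58, and the intervals of most other genes cross 0.

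Ltbp1 encodes the binding protein that ties latent TGF beta to the matrix. Its transcript was 2.13 times as abundant in DKO ovaries. Ltbp1 (gene ID 268977, chromosome 17, 75005529 to 75392967, plus strand, in GRCm38.p5) was at 235, 223, 340.02 and 219 CPM in controls 1 to 4 and at 689, 653, 379 and 449 CPM in DKO 1 to 4. Every DKO library lay above every control library, but control 3 (340.02) and DKO 3 (379) came close. The means were 254 ± 57.5 and 543 ± 152 CPM (SD, n = 4 each), a log2 fold change of 1.09 ± 0.22 (SE) with an edgeR adjusted p of 0.049. An exact two-sided permutation test gave p = 0.0286, the lowest value possible with 4 libraries a group. Any gene whose groups do not overlap gets this value, so it restates the separation. Groups without overlap were seen in 1 of the 37 genes and in 9.24% of all genes tested.

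The call of Ltbp1 was close to the threshold and depended on the libraries used. Of 8 fits that each left out 1 library, it passed in 1, the fit without control 3 (adjusted p = 0.0267), and the adjusted p ran from 0.0589 to 0.186 without any other library. Without control 1 and DKO 2, the libraries rich in Ovgp1, the log2 fold change was 0.97 (adjusted p = 0.141). Within the 5 libraries with higher title numbers, 3 controls against 2 DKO, it was 0.69 (adjusted p = 0.234). The highest values, those of DKO 1 and DKO 2, lie outside that set.

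Luteal markers, like Ltbp1, were mostly higher in DKO. Of 8 luteal genes 7 were above 0, 3 of them called by edgeR. Their summed level was 8678 to 15353 CPM in controls against 16777 to 22309 in DKO. In controls 1 to 4 the sum was 8678, 10632, 15353 and 11758 CPM, where Ltbp1 was at 235, 223, 340.02 and 219 CPM. Control 3 was the highest control in both. In DKO 1 to 4 the sum was 17599, 16777, 22309 and 21700 CPM, where Ltbp1 was at 689, 653, 379 and 449 CPM. Star, which is part of that sum, was at 821, 907, 3267 and 3396 CPM in DKO 1 to 4. Summed smooth muscle markers ran from 2179.8 to 4103 CPM in controls and from 1689.7 to 2856 in DKO, with 7 of 7 below 0 and none called (3 at an unadjusted p under 0.05). Endothelial markers had 7 of 8 above 0 and none called (3 at an unadjusted p under 0.05: Kdr, Tek and Tie1), with sums of 479.7 to 584.7 CPM in controls and 491.1 to 720.03 in DKO. Macrophage and neutrophil markers had 6 of 7 below 0 and none called (2 at an unadjusted p under 0.05). Their sums were 70.5 to 106 CPM in controls and 57.9 to 74.04 in DKO. S100a9 lay below all controls in every DKO library, but narrowly, at 0.432 to 1.03 CPM against 1.10 to 10.9. Its highest value and that of S100a8 (6.24 CPM) were in control 3. DESeq2 called S100a8 and S100a9 lower and none of the smooth muscle or endothelial markers. It called the luteal genes Ptgfr, Oxtr, Hsd3b1, Cyp11a1, Lhcgr and Scarb1 higher. The granulosa gene Foxl2 was also called higher by DESeq2 (adjusted p = 0.00602), at 108 to 144 CPM in controls against 171 to 220 in DKO. No granulosa, theca and stroma, oocyte or surface epithelium and oviduct marker was called by edgeR. In that order, 5, 4, 0 and 0 were above 0 and 3, 4, 7 and 7 below. The part of any of these in the Ltbp1 result was not tested. In a bulk sample a change in the number of cells of a type and a change in RNA per cell cannot be told apart.

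Sequence before the start sites of Ltbp1 is shown because Ltbp1 is the gene that passed, and that before Pcolce because it is the called gene among the other pathway genes described below. RefSeq promoters of GRCm38.p6 matched 25 of the 37 genes, some at more than 1 start. Each run gives the 250 bases before a start site, 5′ to 3′ on the gene's strand, and capitals mark any match to the motifs searched.
Ltbp1, first start, chr17:75005279-75005528, plus strand: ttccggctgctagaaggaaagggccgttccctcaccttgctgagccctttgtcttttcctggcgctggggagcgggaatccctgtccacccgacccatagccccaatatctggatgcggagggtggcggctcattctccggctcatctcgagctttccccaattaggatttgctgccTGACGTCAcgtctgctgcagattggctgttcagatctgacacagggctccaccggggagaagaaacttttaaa
Ltbp1, second start, chr17:75178531-75178780, plus strand: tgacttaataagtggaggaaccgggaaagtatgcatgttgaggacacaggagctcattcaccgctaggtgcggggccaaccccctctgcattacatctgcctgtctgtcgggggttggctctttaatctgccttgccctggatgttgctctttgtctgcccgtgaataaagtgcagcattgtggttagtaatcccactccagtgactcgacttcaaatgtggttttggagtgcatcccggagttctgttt
Pcolce, chr5:137611405-137611654, minus strand: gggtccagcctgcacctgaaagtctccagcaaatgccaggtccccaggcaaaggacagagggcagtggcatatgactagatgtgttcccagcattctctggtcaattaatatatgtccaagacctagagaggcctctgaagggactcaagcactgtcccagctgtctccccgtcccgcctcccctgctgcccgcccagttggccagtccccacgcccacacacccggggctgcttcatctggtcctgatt

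The motifs searched on both strands were the cAMP response element TGACGTCA, the FOXO motif GTAAACA, the SMAD palindrome GTCTAGAC and the BMP-SMAD motif GGCGCC, and none of these overlapped another in the 3 runs. TGACGTCA was found once, 73 bases before the first Ltbp1 start. Of 32851 RefSeq promoter windows of this length, 1.55% held it, 3.17% held GTAAACA, 0.167% held GTCTAGAC and 9.59% held GGCGCC. Among the 25 matched genes, Ltbp1 was the only one with TGACGTCA, none had GTAAACA or GTCTAGAC, and 8 had GGCGCC, namely Bmpr1a, Bmpr2, Grem1, Id2, Id4, Smad5, Smad9 and Tgfbr1. These 25 genes had 31 windows, so counts by gene and the shares by window are in unlike units. Whether any motif was in excess was not tested. The counts sum over a gene and do not separate its start sites.

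The other LTBP genes, named here after their values were seen, did not pass the test. Ltbp2 was at 21.6 ± 3.61 CPM in controls against 20.9 ± 2.52 in DKO. Ltbp3 was at 337 ± 48.5 and 351 ± 39.2 CPM, and Ltbp4 at 222 ± 19.6 and 207 ± 40.3 CPM. Their log2 fold changes were -0.05 ± 0.15, 0.06 ± 0.13 and -0.10 ± 0.14 (edgeR adjusted p = 0.916, 0.875 and 0.791). Ltbp1 was also compared with each of them within a library, per length of gene model, in ratios chosen after the values were seen. The ratio of Ltbp1 to Ltbp3 was 0.492, 0.435, 0.563 and 0.508 in controls 1 to 4 and 1.16, 1.16, 0.782 and 0.953 in DKO 1 to 4. In log2 the ratio of Ltbp1 was higher in DKO by 1.01 against Ltbp3, 1.11 against Ltbp2, 1.19 against Ltbp4 and 1.10 against the ligand gene Tgfb1. These ratios are a description with no test, since their genes were chosen on their values.

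Bmp1 encodes a metalloprotease that trims procollagens and frees BMPs by cutting chordin. It was at 185, 224, 251 and 174 CPM in controls against 192, 187, 171 and 162 in DKO, where the groups overlapped (-0.23 ± 0.13, edgeR adjusted p = 0.468). Pcolce, whose product enhances that cleavage of procollagen, passed the test. It rose from 284, 253, 342 and 241 CPM in controls 1 to 4 to 522, 459.5, 433 and 419 CPM in DKO 1 to 4, with every DKO library above every control. The means were 280.3 ± 45.1 and 458 ± 45.3 CPM (log2 fold change 0.71 ± 0.13, edgeR adjusted p = 0.0425). Pcolce passed in 1 of the 8 fits that left out 1 library, that without control 3 (adjusted p = 0.0125). The adjusted p was 0.0526 to 0.178 in the other 7. The ratio of Pcolce to Bmp1 per length was 3.16 to 4.30 in controls and 6.85 to 7.56 in DKO.

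**Figure D2:**
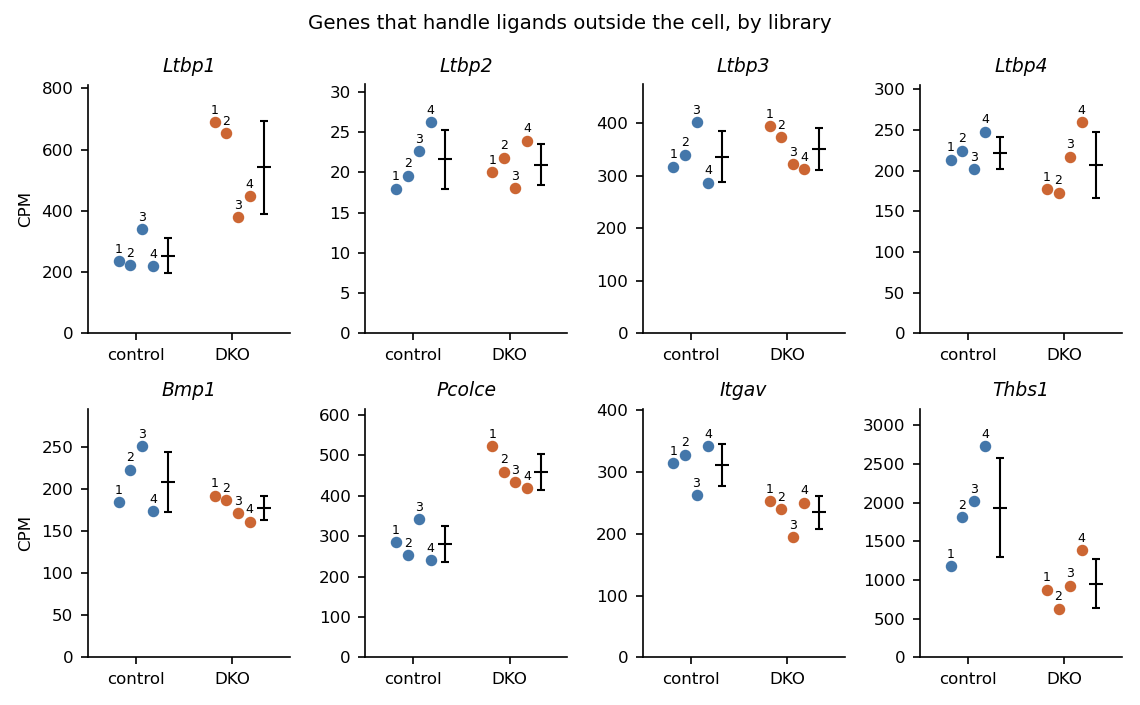
CPM by library of 8 genes whose products act outside the cell, on ligands or, for Pcolce, on procollagen. The replicate number is at each point and the mean ± SD (n = 4) beside it. DKO points lie above all control points for Ltbp1 (379 to 689 against 219 to 340.02) and Pcolce (419 to 522 against 241 to 342), and below them for Itgav (195 to 253 against 262 to 341).

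The levels of the family are best compared per length. In controls the ID genes Id2 and Id3, whose products block basic helix-loop-helix transcription factors, led with 385 ± 130 and 130.3 ± 19.5 CPM per kb of gene model (SD, n = 4). Fstl1, which encodes a secreted follistatin-like glycoprotein, followed with 112 ± 25.4 CPM per kb. The control ranges of Id3 (104 to 151) and Fstl1 (77.3 to 138) overlapped, so their order is within the spread. Tgfbr1 led the receptors with 83.5 ± 14.4 CPM per kb, above Bmpr2 at 44.7 ± 12.1 and Bmpr1a at 39.96 ± 9.10. Ltbp1 had rank 10 with 30.8 ± 6.98 CPM per kb in controls and 65.8 ± 18.4 in DKO.

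The TGF beta ligand genes followed the order Tgfb1, Tgfb3, Tgfb2, with 37.3, 14.5 and 3.81 CPM per kb in controls. Bmp2 (12.9) and Bmp6 (11.8) were the most abundant BMP ligands of the list, above Bmp7 (3.23) and Bmp4 (2.87). Nog, which encodes the BMP antagonist noggin, was last with 0.0747 CPM per kb, from 8 to 16 counts per library. Its gene model holds exon records of equal length on 2 sequences of the assembly, so its count and level are uncertain.

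**Figure D3:**
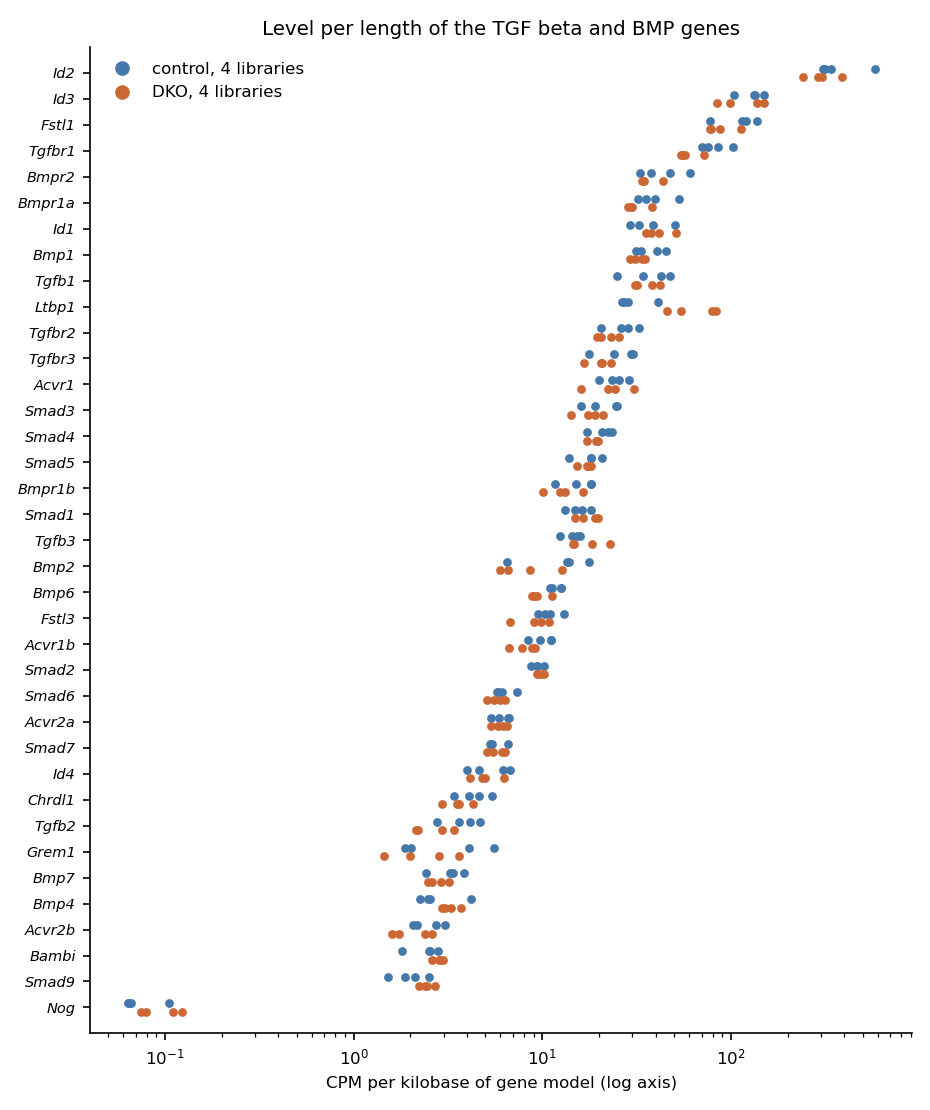
CPM per kb of gene model on a log axis for each gene in each of the 4 control (blue) and 4 DKO (orange) libraries, ordered by the control mean. The order runs from Id2 at 385 CPM per kb to Nog at 0.0747, and Ltbp1 is the gene whose points separate by group.

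Among the 7 ligands none passed edgeR's test, 5 being below 0 and 2 above. Bmp6, a ligand that granulosa cells and oocytes make, had the smallest adjusted p. It was at 33.8, 37.5, 37.5 and 32.9 CPM in controls 1 to 4 and 26.5, 33.9, 28.1 and 27.2 in DKO 1 to 4. DKO 2 lay within the control range and the other 3 below it (-0.29 ± 0.11, adjusted p = 0.235). Tgfb1, the most abundant of the 7 per length, was at 54.4, 74.2, 104 and 92.7 CPM in controls against 67.3, 69.6, 83.4 and 91.4 in DKO, and each DKO value fell inside the control range (-0.06 ± 0.19, adjusted p = 0.915). Its sign changed in 5 of the 20 alternative analyses, so no direction can be given.

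Tgfb2 was at 20.7 ± 4.45 CPM in controls against 14.5 ± 3.33 in DKO (-0.51 ± 0.20, adjusted p = 0.256). Bmp2 was at 45.8 ± 16.5 and 30.3 ± 10.9 CPM (-0.60 ± 0.32, adjusted p = 0.425), the widest spread of the ligands, with 2.94-fold between its lowest and highest library. It stood at 23.2, 21.3 and 23.6 CPM in control 1, DKO 1 and DKO 2, and at 30.9 to 62.8 CPM in the 5 libraries with higher title numbers. The same split between title numbers, with all 5 libraries above the other 3, was seen in Tgfb1, Tgfb2, Bmp7 and Id3, so in 5 of the 37 genes (13.5%) against 10.2% of all genes tested. Oocyte markers split the libraries in the same way (7 of 7), and their part in these values was not tested.

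The remaining ligands overlapped between the groups. Tgfb3 was at 48.96 ± 5.12 CPM in controls against 59.6 ± 13.1 in DKO (0.28 ± 0.15). Bmp4, which theca cells make, was at 6.57 ± 2.06 and 7.44 ± 0.755 CPM (0.18 ± 0.22), and Bmp7 at 11.9 ± 2.19 and 10.3 ± 1.22 CPM (-0.21 ± 0.17). Their edgeR adjusted p values were 0.423, 0.77 and 0.629.

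All 9 type I and type II receptor genes of the family list had a fitted change below 0, with a median of -0.28. None of the 9 passed edgeR's test (2 at an unadjusted p under 0.05). The fall was not shared by all receptor genes. Among the other pathway genes described below, 6 receptor genes were tested. Of these, 3 were above 0 and 3 below, with a median of -0.02 and none called. Tgfbr1, the type I receptor of TGF beta, had the smallest adjusted p of the 9. It was at 463, 433, 527 and 633 CPM in controls 1 to 4 and at 333, 345, 353 and 444 CPM in DKO 1 to 4. Only DKO 4 reached into the control range, above control 2. The means were 514 ± 88.5 and 369 ± 50.7 CPM (-0.48 ± 0.15, edgeR adjusted p = 0.155, exact two-sided permutation p = 0.0571).

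Its partner Tgfbr2, the type II receptor of TGF beta, was at 137, 125, 98.1 and 155 CPM in controls against 94.0, 110.4, 98.2 and 122 in DKO. Control 3 lay among the DKO values (-0.28 ± 0.15, adjusted p = 0.406). Bmpr2, the type II receptor of the BMPs, was at 419.7, 528, 366 and 671 CPM in controls against 375, 379, 387 and 485 in DKO, where control 3 was the lowest of all 8 (-0.29 ± 0.19, adjusted p = 0.52). The BMP type I receptor genes Bmpr1a (248 ± 56.4 and 196 ± 28.0 CPM) and Bmpr1b (122 ± 23.9 and 100.1 ± 20.3 CPM) had log2 fold changes of -0.34 ± 0.17 and -0.28 ± 0.18 (adjusted p = 0.373 and 0.504).

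The activin type I receptor gene Acvr1b was at 33.1 ± 4.24 CPM in controls against 26.6 ± 3.66 in DKO (-0.31 ± 0.14, adjusted p = 0.305). Acvr1, which encodes a type I receptor for BMPs, was at 95.7 ± 14.6 and 91.3 ± 23.7 CPM (-0.07 ± 0.19). The activin type II receptor genes Acvr2a and Acvr2b had log2 fold changes of -0.04 ± 0.11 and -0.27 ± 0.19. Acvr1 and Acvr2a changed sign in 4 and 3 of the 20 alternative analyses, so no direction can be given for them.

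Tgfbr3 encodes betaglycan, a coreceptor that presents TGF beta and binds inhibin. It was at 179, 145, 107 and 183 CPM in controls against 139, 126, 101 and 125 in DKO, so that control 3 lay inside the DKO range (-0.32 ± 0.17, edgeR adjusted p = 0.417). Bambi, a receptor-like protein with no kinase that damps signalling, was at 12.2 ± 2.15 and 14.2 ± 0.814 CPM (0.22 ± 0.15, adjusted p = 0.543).

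The SMAD genes split evenly, with 4 of 8 above 0 and 4 below and a median log2 fold change of -0.02. Smad7 and Smad5 changed sign in 4 and 3 of the 20 alternative analyses, so no direction can be given for them. None passed, and none had an unadjusted p under 0.05 (edgeR), nor was any called by DESeq2. Smad2, which carries TGF beta and activin signals, was at 91.1 ± 6.09 CPM in controls against 94.6 ± 3.46 in DKO, with a 95% interval of the log2 fold change from -0.13 to 0.24. Smad3, which does the same and was the most abundant receptor-regulated SMAD per length, was at 101, 132, 85.1 and 131 CPM in controls against 75.3, 92.3, 101 and 112 in DKO, with much overlap (-0.24 ± 0.17, adjusted p = 0.558).

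Of the SMADs of the BMP branch, Smad1 was at 51.1 ± 6.64 and 57.4 ± 7.38 CPM and Smad5 at 131 ± 20.7 and 126 ± 9.49 CPM. Smad9 was at 15.4, 11.4, 9.32 and 12.8 CPM in controls against 14.5, 13.5, 14.8 and 16.4 in DKO. Control 1 lay inside the DKO range (0.28 ± 0.16, adjusted p = 0.475). Smad4, the partner shared by both branches, was at 155, 167.3, 130.1 and 175 CPM in controls against 146, 144, 130.3 and 149 in DKO (-0.14 ± 0.11, adjusted p = 0.615), and each DKO value fell inside the control range. The inhibitor Smad6 was at 22.1, 17.4, 17.3 and 18.4 CPM in controls against 17.9, 16.7, 19.1 and 15.4 in DKO (-0.12 ± 0.13, adjusted p = 0.717). The inhibitor Smad7 was at 25.2 ± 2.80 and 25.6 ± 2.604 CPM, and the groups of both inhibitors overlapped.

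Of the 5 secreted antagonists, 4 were below 0 and 1 above, with no call and no unadjusted p under 0.05 in edgeR and no call in DESeq2. Fstl1 was at 279, 414, 433 and 497 CPM in controls against 316, 279.7, 284 and 407 in DKO, with control 1 the lowest of all 8 (-0.33 ± 0.19, adjusted p = 0.441). Fstl3, a follistatin-like antagonist of activins, was at 21.4 ± 2.92 and 17.8 ± 3.38 CPM (-0.27 ± 0.16), and Chrdl1, a chordin-like BMP antagonist, at 29.8 ± 5.80 and 24.4 ± 3.81 CPM (-0.29 ± 0.16). Grem1, a BMP antagonist of cumulus cells, was the most variable of the 37 genes, with 3.85-fold between its lowest and highest library. It ran from 3.33 to 9.86 CPM in controls against from 2.56 to 6.46 in DKO (-0.45 ± 0.40, adjusted p = 0.659).

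The 4 ID genes gave no call and no unadjusted p under 0.05 in edgeR, and DESeq2 called none. Id2 was at 403, 389.9, 736 and 432 CPM in controls against 387, 494, 307 and 371 in DKO. Control 3 stood far above the other 7 libraries (-0.33 ± 0.22, adjusted p = 0.54). Id1, at 36.2 ± 8.94 and 39.6 ± 6.59 CPM (0.13 ± 0.18), and Id3, at 124 ± 18.6 and 112 ± 29.4 CPM (-0.15 ± 0.19), overlapped between groups, as did Id4 at 8.98 ± 2.15 and 8.37 ± 1.44 CPM (-0.10 ± 0.21). Id3 and Id4 changed sign in 1 of the 20 alternative analyses each.

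**Figure D4:**
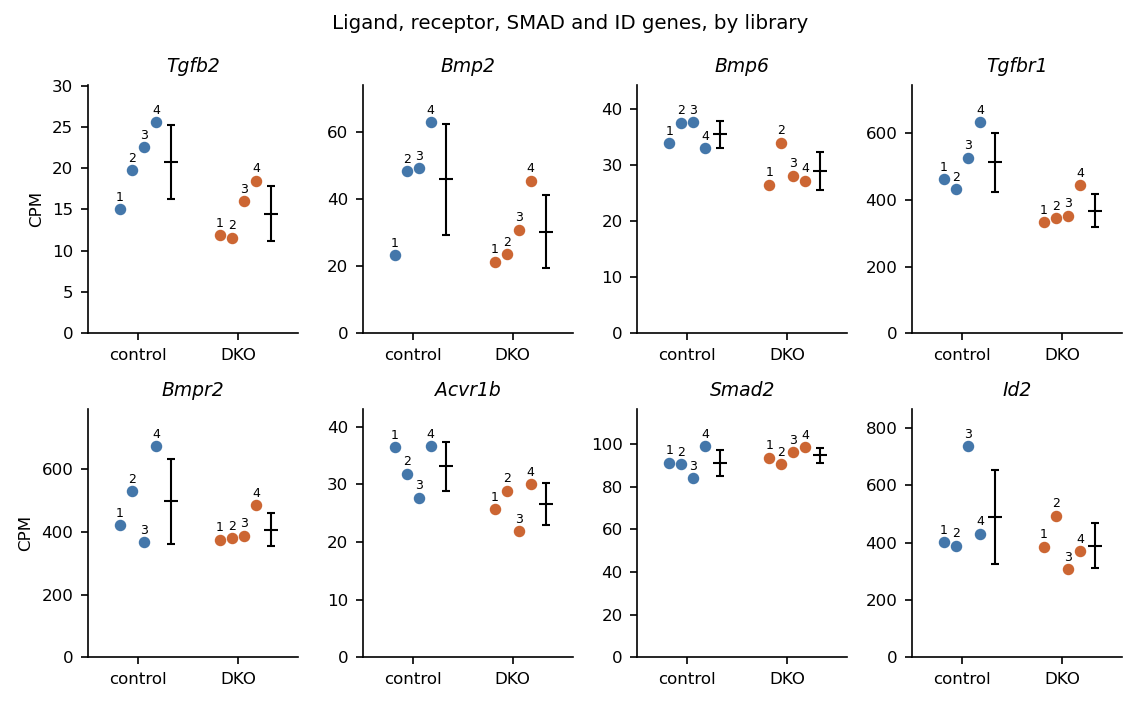
CPM by library of 8 ligand, receptor, SMAD and ID genes, with the replicate number at each point and the mean ± SD (n = 4) beside it. The groups overlap in each panel, with Tgfbr1 the nearest to a separation (433 to 633 against 333 to 444 CPM) and Id2 showing control 3 apart at 736 CPM.

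**Figure D5:**
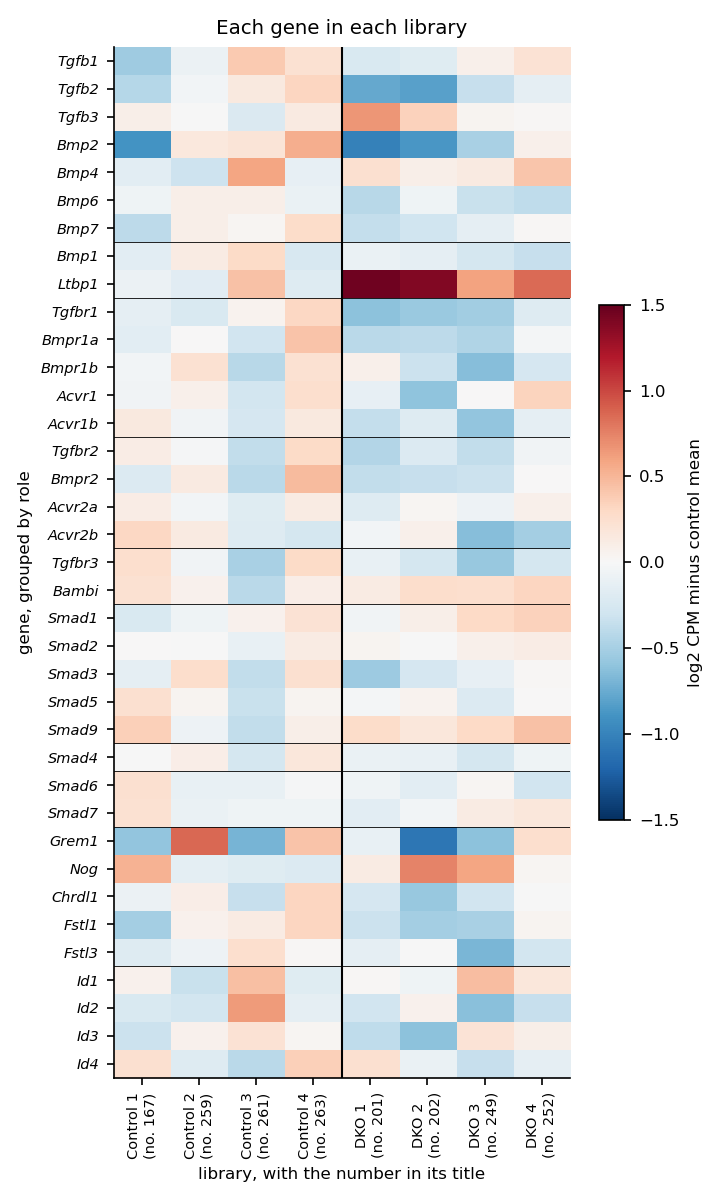
Log2 CPM of each gene in each library minus its control mean (red above, blue below, scale from -1.5 to 1.5), with libraries in columns and genes grouped by role. Ltbp1 is red in all 4 DKO columns, as are Tgfb3, Bmp4, Bambi and Smad9 more faintly in most columns. Bmp2 is bluest in control 1, DKO 1 and DKO 2, at 21.3 to 23.6 CPM, and also blue in DKO 3 at 30.9 CPM.

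Another 91 genes of the pathway were listed by role, and 84 of them were tested. Here too 1 gene was higher in DKO, Pcolce, and none was lower, with 62 of 84 below 0 (73.8%) and a median log2 fold change of -0.17. At an unadjusted p under 0.05 there were 3 higher and 7 lower. DESeq2 called 1 higher (Pcolce) and 3 lower (Thbs1, Furin and Ccn2) of 91, against 3.59% of the 29920 genes it fitted. Of the 91, 84 passed the filter on low counts, against 16870 of all genes, so these DESeq2 shares have unlike bases. The groups did not overlap in 2 of the 84 genes, Pcolce and Itgav, against 9.24% of all genes. Apart from the DESeq2 count, these counts are near or below the background.

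Itgav, the integrin subunit that pulls latent TGF beta open, was at 313, 327, 262 and 341 CPM in controls against 253, 239, 195 and 249.996 in DKO, all below the lowest control. Its log2 fold change was -0.41 ± 0.12 (edgeR adjusted p = 0.151). Thbs1, whose product thrombospondin 1 activates latent TGF beta, was named after its values were seen. It was at 1183, 1816, 2022 and 2726 CPM in controls against 875, 628, 927 and 1384 in DKO, where DKO 4 passed control 1 (-1.02 ± 0.29, adjusted p = 0.126). Furin, the protease that cleaves the TGF beta precursors, also named after the fact, was at 299 ± 49.1 and 207 ± 35.4 CPM (-0.54 ± 0.16, adjusted p = 0.142).

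In the other roles the gene with the smallest adjusted p was Bmp3 among ligands (-0.43 ± 0.19, 0.331), Acvrl1 among receptors (0.20 ± 0.13, 0.518) and Htra3 among antagonists (0.29 ± 0.12, 0.286). It was Tob1 among intracellular regulators (0.42 ± 0.14, 0.186) and Ccn2 among target genes (-1.28 ± 0.45, 0.217). Bmp3 was at 34.9, 57.7, 35.1 and 56.6 CPM in controls 1 to 4 and 37.5, 27.6, 33.6 and 38.1 in DKO 1 to 4. Acvrl1, an endothelial type I receptor gene, was at 24.6, 23.6, 24.6 and 27.5 CPM in controls and at 24.2, 25.6, 32.2 and 33.4 in the DKO libraries. Both overlapped between groups. Htra3, a secreted protease gene, was at 53.9, 58.1, 52.0 and 65.8 CPM in controls and at 81.3, 73.3, 66.4 and 59.7 in the DKO libraries, with DKO 4 below control 4. Tob1, which encodes an antiproliferative regulator of SMAD signals, was at 126, 99.8, 85.7 and 128 CPM in controls and at 159, 157, 127 and 145 in the DKO libraries, with DKO 3 just below control 4. Ccn2, a matrix protein gene that TGF beta induces, was at 143, 322, 544 and 566 CPM in controls against 118, 100.02, 175 and 256 in DKO. Control 1 lay among the DKO libraries. The oocyte ligand genes Gdf9 and Bmp15, which are in this wider list, averaged 81.9 CPM in controls and 61.7 in DKO (Gdf9, from 25.1 to 114 and from 37.1 to 106), and 36.7 ± 18.3 and 24.3 ± 11.7 CPM (Bmp15), with no call (edgeR adjusted p = 0.767 and 0.623). The 7 genes of the wider list that did not pass the filter on low counts were Bmp8b, Gdf5, Mstn, Hjv, Itgb6, Sostdc1 and Cer1.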

How the data were processed

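Whole-ovary RNA sequencing libraries were compared, 4 controls against 4 DKO, as the sample descriptions name them, and none was left out. The authors deposited raw counts per gene for each library, made with featureCounts of Subread 1.5.2 on RefSeq exons of GRCm38.p5 with the reverse-stranded setting, per the file headers. No setting for multiply matching reads is recorded, so counts of near-identical copies are uncertain. Without stating roles, STAR 2.4.2a, Trimmomatic 0.33 and 0.36, edgeR 3.12.0, bcl2fastq 2.17.1.14 and GRCm38.p3 are named too, per the submitters' processing notes. No listed gene of the family shares exonic bases with another gene on its strand.

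Symbols came from RefSeq of GRCm38.p6 (96.9% of IDs matched). The analysis used R 4.3.3, edgeR 4.0.16, limma 3.58.1, DESeq2 1.42.0 and Python 3.11.15. Genes passed filterByExpr, libraries were scaled by TMM (factors 0.943 to 1.06), and the robust quasi-likelihood F-test had no covariate. An SE is the log2 fold change over the square root of F, and intervals are 95%. Depth limits precision little except for Nog. The script was checked on simulated counts. Replicates of a group differed beyond sampling noise (reduced chi-square 25.05 to 143).

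Values in every library are given for family members called, those whose groups do not overlap, and, in each role, the most abundant member and that of smallest adjusted p. Of the wider list, genes called, genes without overlap and the gene with the smallest adjusted p of each role are named. Members, lists and tests were chosen with earlier results of these data known. Alternatives covered scaling, filters, DESeq2, limma-voom, sample weights, dispersions, a replicate block, leaving out each library, and the 5 libraries with higher title numbers. The fit without control 1 and DKO 2 was chosen after seeing the data.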

Additional observations from a re-analysis of the deposited data

Results flagged for a closer look

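Among the 37 genes, 7 of the 74 groups of 4 libraries held a value far from the other 3 (a gap beyond Dixon's critical value), and chance gives about 1 in 20. In control 3 these were Ltbp1 at 340.02 CPM (219 to 235 in the other controls), Id2 at 736 CPM (389.9 to 432) and Bmp4 at 9.62 CPM (5.14 to 5.83). In control 1 they were Smad7 at 29.4 CPM (23.5 to 24.1) and Nog at 0.403 CPM (0.244 to 0.254). In DKO 4 the BMP receptor genes Bmpr1a at 238 CPM (178 to 185) and Bmpr2 at 485 CPM (375 to 387) stood above the other 3 DKO libraries. Control 3 also had the lowest control value of both receptor genes.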

How the results depend on the processing

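The median log2 fold change of the 37 genes stayed below 0 in all 20 alternatives, from -0.23 to -0.13, and 30 of the 37 kept their sign in all of them. The count of called members (main analysis 1) was 0 with upper quartile factors, with non-robust dispersions, within the 5 libraries with higher title numbers and without control 1 and DKO 2. It was 2 with quality weights (Bmp6 lower beside Ltbp1), and ran from 0 to 1 when single libraries were left out. Where no member was called, 3 to 9 had an unadjusted p under 0.05, and where no other pathway gene was called, 6 to 22 had. The cause was not tested. The log2 fold change of Ltbp1 missed the threshold at 1.11 with upper quartile factors (adjusted p = 0.0521), 1.09 with non-robust dispersions (0.0535), 0.69 within the higher title numbers (0.234) and 0.97 without control 1 and DKO 2 (0.141), and ran from 0.96 to 1.27 without single libraries. It passed in 8 of 20 alternatives. Other pathway genes called (main analysis 1) were 4 with DESeq2, 6 with quality weights, 0 in both of the reduced sets of libraries, and 0 to 1 without single libraries. Calls over all genes (main analysis 212) were 1074 with DESeq2, 1651 with quality weights, 97 without control 1 and DKO 2, and 2 to 506 without single libraries.

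The replicate numbers did not pair all of the samples. Deviations of same-numbered libraries correlated at 0.16, -0.36, 0.31 and 0.47. Controls 3 and 4 correlated best with DKO 3 and DKO 4, but control 1 with DKO 2 (0.64) and control 2 with DKO 3 (0.26). With the replicate block 743 genes were called, Tgfbr1 was the called member (-0.47, adjusted p = 0.0354), Ltbp1 was at 1.08 (0.0732), and 6 other pathway genes were called.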
